A study of Mus musculus with 11 samples.

Results

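The messages of the transforming growth factor beta (TGF-beta) ligands, their receptors and the SMAD proteins that carry their signal were examined in mouse mammary tumors with floxed or intact *Pcbp1* and a mammary Cre. The group holds the 10 genes *Tgfb1*, *Tgfb2*, *Tgfb3*, *Tgfbr1*, *Tgfbr2*, *Tgfbr3*, *Smad2*, *Smad3*, *Smad4* and *Smad7*, taken by name from a deposited table of 26283 genes. All 10 passed the filter on low counts and were among the 19232 genes tested.

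PCBP1 binds poly-cytosine stretches in RNA and DNA, and the study asked how its loss alters mammary tumors. The RNA data come from 11 tumors taken from C57BL/6 mice aged 18 weeks, 6 PyMT *Pcbp1*–/– and 5 PyMT *Pcbp1*+/+. All the mice carried MMTV-PyMT, which drives the polyomavirus middle T antigen in the mammary gland, together with MMTV-Cre. The PyMT *Pcbp1*–/– mice had *Pcbp1*(fl/fl) alleles and the PyMT *Pcbp1*+/+ mice had *Pcbp1*(wt/wt) alleles. The MMTV promoter is known to act mainly in mammary epithelial cells, and *Pcbp1* by cell type cannot be read from these whole-tumor data. The labels used here give genotype, replicate number and age. They do not say whether each tumor came from a separate mouse, so p-values measure the spread between these tumors.

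TGF-beta ligands are secreted in a latent form that is held in the matrix or on cell surfaces until it is activated. The active ligand brings the type II receptor TGFBR2 and the type I receptor TGFBR1 together, and TGFBR1 phosphorylates SMAD2 and SMAD3, which enter the nucleus with SMAD4. In the mammary gland the pathway restrains epithelial growth, and in advanced tumors it is known for promoting invasion and for acting on stromal and immune cells.

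Levels are given in CPM, estimated counts scaled to a common library total, and the libraries held between 10543189 and 14092192 estimated counts. The targeted gene *Pcbp1* stood at 15.4, 20.9 and 33.6 CPM (lowest, median and highest) in the 6 PyMT *Pcbp1*–/– tumors and at 268, 271, 225, 219.5 and 259 CPM in the 5 PyMT *Pcbp1*+/+ tumors, replicates 1 to 5 in order. Every tumor thus matched its label, with no overlap between the groups. The level was 10.8-fold lower in PyMT *Pcbp1*–/– tumors (95% interval 8.14 to 14.3, log2 fold change -3.43, SE 0.19, edgeR adjusted p = 4.72e-06).

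No message of the 10 members differed between the genotypes at an adjusted p under 0.05 in edgeR's quasi-likelihood test, 0 lower and 0 higher. DESeq2, limma-voom with sample quality weights (limma-voom from here on) and limma on log2 CPM also called 0 of the 10. At an unadjusted p under 0.05 the count was 1 of 10, which was *Tgfb3*. That count was 0 in 9 of 21 alternative settings and 2 with limma-voom and with the replicate number as a block. The member counted was not always *Tgfb3*. With limma-voom *Tgfb2* and *Smad4* had the lowest adjusted p-values (0.120 and 0.121), below *Tgfb3* (0.175). In edgeR, *Tgfb2* had the lowest without replicate 5 of PyMT *Pcbp1*–/– (0.212) or of PyMT *Pcbp1*+/+ (0.129). *Smad7* did without replicate 6 of PyMT *Pcbp1*–/– (0.282). Across all the genes tested, 2.27% were called, 1.66% lower and 0.608% higher in PyMT *Pcbp1*–/– tumors, and 18.7% had an unadjusted p under 0.05. Their median log2 fold change was 0.10, beside -0.00012 over all the genes tested, with 7 values above 0 and 3 below. The groups overlapped for each of the 10 members, and the share of all the genes tested whose groups overlap is not given here. The lowest estimated count of any member was 163, for *Smad2*, where counting error alone is 7.83% of the value.

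**Figure D1:**
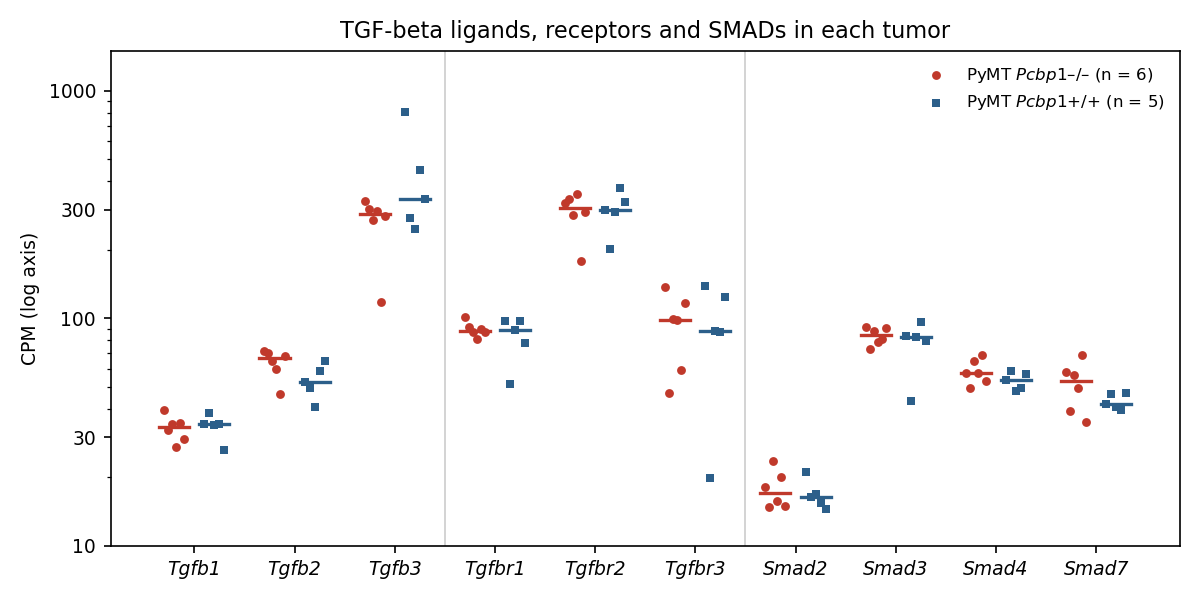
Level of each member in every tumor, in CPM on a log axis, with 6 PyMT *Pcbp1*–/– tumors as red circles and 5 PyMT *Pcbp1*+/+ tumors as blue squares, in replicate order from left to right, and the group median as a line. The genotypes overlap for every member. The lowest and highest tumors of *Tgfb3* are at 118 and 803 CPM, and the lowest of *Tgfbr3* is at 19.9 CPM.

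Of the 3 ligands, *Tgfb3* had the highest level and the widest spread. *Tgfb3* (ENSMUSG00000021253.7, GRCm38 chr12:86056745-86079041, minus strand) encodes the ligand that is prominent in the mammary gland during involution. It stood at 118, 289 and 329 CPM in PyMT *Pcbp1*–/– tumors (lowest, median and highest) and at 803, 276, 248, 448 and 334 CPM in the PyMT *Pcbp1*+/+ tumors. Replicate 1 of PyMT *Pcbp1*+/+ held by far the most and replicate 5 of PyMT *Pcbp1*–/– the least, while the other PyMT *Pcbp1*–/– tumors lay between 269 and 329 CPM and the other PyMT *Pcbp1*+/+ tumors between 248 and 448 CPM. Of the latter, replicates 4 and 5 also stood above every PyMT *Pcbp1*–/– tumor. The mean was 266 ± 74.9 CPM (SD, n = 6) against 422 ± 227 CPM (SD, n = 5). The log2 fold change was -0.64 (SE 0.29, 95% interval -1.27 to -0.01), with an unadjusted p of 0.0474 and an edgeR adjusted p of 0.262. Without replicate 1 of PyMT *Pcbp1*+/+ the log2 fold change was -0.31, and without replicate 5 of PyMT *Pcbp1*–/– it was -0.49. *Tgfb3* overlaps the gene *Ttll5* on the other strand over 5149 bases, and whether the counting used strand is not given in the sources used here. *Ttll5* stood at 15.7 to 25.0 CPM (log2 fold change -0.18, adjusted p = 0.433). The unnamed transcript RP24-299H18.2, also on the other strand and overlapping over 607 bases, stood at 1.14 to 10.8 CPM (-0.73, adjusted p = 0.321).

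Basal or myoepithelial cells form the outer epithelial layer of the gland, and their markers varied between the tumors as well. The summed level of 8 basal/myoepithelial markers was 498, 148, 411, 505, 419.6 and 574 CPM for the 6 PyMT *Pcbp1*–/– tumors, in replicate order. For the 5 PyMT *Pcbp1*+/+ tumors, in replicate order, it was 1070.5, 407, 367, 399 and 129 CPM. The tumor with the most *Tgfb3* therefore also held the highest marker sum of the 11. Replicate 5 of PyMT *Pcbp1*–/–, with the least *Tgfb3*, stood at 419.6 CPM within the range of the rest. None of the 8 markers was called by edgeR or limma, nor any of the 7 that DESeq2 tested. In edgeR 1 had an unadjusted p under 0.05 (*Krt14*, log2 fold change -2.42, adjusted p = 0.160). The most abundant was *Mylk*, and none was at 0 in any tumor. Whether these cells had a part in the *Tgfb3* values was not tested. In whole tumors, fewer cells of a type and less RNA per cell cannot be told apart.

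*Tgfb2* (ENSMUSG00000039239.14, chr1:186622792-186705989, minus strand) encodes a ligand that needs a co-receptor for efficient binding to TGFBR2. Its level was 46.3, 66.6 and 71.4 CPM in PyMT *Pcbp1*–/– tumors (lowest, median and highest) and 52.4, 49.1, 40.6, 58.4 and 64.9 CPM in PyMT *Pcbp1*+/+ tumors. Of the 6 PyMT *Pcbp1*–/– tumors all but replicate 5 stood above 60 CPM, a level that only replicate 5 of the PyMT *Pcbp1*+/+ tumors reached. The log2 fold change of 0.26 (SE 0.13, 95% interval -0.03 to 0.55) did not pass the test (edgeR adjusted p = 0.321). In all 21 alternative settings it stayed above 0, between 0.20 and 0.37, and passed in none.

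*Tgfb1* (ENSMUSG00000002603.15, chr7:25687002-25705077, plus strand) encodes the ligand made by most immune and stromal cells. It was the steadiest of the ligands, at 27.2, 33.4 and 39.6 CPM in PyMT *Pcbp1*–/– tumors (lowest, median and highest) and at 34.3, 38.3, 33.9, 34.2 and 26.4 CPM in PyMT *Pcbp1*+/+ tumors. The 2 groups covered nearly the same range, with means of 32.9 ± 4.37 CPM (SD, n = 6) and 33.4 ± 4.31 CPM (SD, n = 5). The fitted log2 fold change was -0.02 (SE 0.11, edgeR adjusted p = 0.939). Its 95% interval ran from -0.26 to 0.22, a ratio of 0.835 to 1.16.

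Per kilobase of exon, *Tgfb3* made up most of the ligand messages in each of the 11 tumors. Its share of the summed CPM per kilobase of the 3 ligands ranged from 61.4% in replicate 5 of PyMT *Pcbp1*–/– to 91.1% in replicate 1 of PyMT *Pcbp1*+/+. The median share was 76.5% with *Pcbp1* lost and 80.5% with it kept. *Tgfb2* held between 4.94% and 20.04%, and *Tgfb1* between 3.98% and 18.5%. Both extremes of each share fell in the same 2 tumors that were the extremes of *Tgfb3*.

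Among the receptors, *Tgfbr2* was the most abundant and *Tgfbr3* the most variable. *Tgfbr2* (ENSMUSG00000032440.13, chr9:116084293-116175360, minus strand), the type II receptor that binds the ligand first, stood at 178, 307 and 353 CPM in PyMT *Pcbp1*–/– tumors (lowest, median and highest) and at 299, 201, 293, 373 and 325 CPM in PyMT *Pcbp1*+/+ tumors. Each group held 1 low tumor, replicate 5 of PyMT *Pcbp1*–/– and replicate 2 of PyMT *Pcbp1*+/+, and the other 9 lay between 284 and 373 CPM. Between the genotypes the log2 fold change was -0.03 (SE 0.18, 95% interval -0.42 to 0.36, edgeR adjusted p = 0.953).

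*Tgfbr1* (ENSMUSG00000007613.15, chr4:47353222-47414931, plus strand) encodes the type I receptor kinase. It stood at 80.7, 88.3 and 101 CPM in PyMT *Pcbp1*–/– tumors (lowest, median and highest) and at 97.2, 51.5, 88.8, 97.3 and 77.7 CPM in PyMT *Pcbp1*+/+ tumors. The low value of replicate 2 of PyMT *Pcbp1*+/+ widened that group, and the remaining tumors of both genotypes overlapped. A log2 fold change of 0.12 (SE 0.14, 95% interval -0.19 to 0.42, edgeR adjusted p = 0.696) became -0.01 without that tumor.

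*Tgfbr3* (ENSMUSG00000029287.14, chr5:107106570-107289629, minus strand) encodes betaglycan, the co-receptor that presents ligand, TGF-beta 2 above all, to TGFBR2. Its level was 47.0, 98.7 and 137 CPM in PyMT *Pcbp1*–/– tumors (lowest, median and highest) and 139, 19.9, 88.2, 87.2 and 123 CPM in PyMT *Pcbp1*+/+ tumors. Replicate 2 was the lowest tumor of each group, and the highest tumor of all held 6.98 times the level of the lowest. The log2 fold change of 0.02 had an SE of 0.40 and a 95% interval of -0.85 to 0.89 (edgeR adjusted p = 0.987), which corresponds to a ratio from 0.555 to 1.85. Without replicate 2 of PyMT *Pcbp1*+/+ the value was -0.24. The sums of the 8 basal/myoepithelial markers followed *Tgfbr3* in some of the extreme tumors and not in others. The highest *Tgfbr3* tumor, replicate 1 of PyMT *Pcbp1*+/+, had the highest sum (1070.5 CPM), and replicate 2 of PyMT *Pcbp1*–/– had the lowest sum of its group (148 CPM). Replicate 2 of PyMT *Pcbp1*+/+ had a sum of 407 CPM, and replicate 5 of that group had the lowest sum of the 11, 129 CPM, with 123 CPM of *Tgfbr3*. The part of these cells in the *Tgfbr3* values was not tested. Within its bounds *Tgfbr3* holds 3 short annotated transcripts on its own strand, at no more than 18.9 CPM, and how shared reads were divided is not given in the sources used here.

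The 4 SMAD messages had log2 fold changes between 0.09 and 0.24, all above 0, and none passed the test. *Smad3* (ENSMUSG00000032402.12, chr9:63646767-63757994, minus strand), a receptor-regulated SMAD that binds DNA, stood at 72.9, 84.7 and 91.2 CPM in PyMT *Pcbp1*–/– tumors (lowest, median and highest) and at 83.5, 43.1, 82.9, 96.6 and 79.1 CPM in PyMT *Pcbp1*+/+ tumors. As for *Tgfbr1*, replicate 2 of PyMT *Pcbp1*+/+ was the low tumor and the rest overlapped. The log2 fold change of *Smad3*, 0.12 (SE 0.17, 95% interval -0.24 to 0.48, edgeR adjusted p = 0.741), became -0.03 without that tumor and 0.013 with limma-voom.

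*Smad2* (ENSMUSG00000024563.15, chr18:76241580-76305731, plus strand), the other receptor-regulated SMAD of the TGF-beta branch, stood at 14.8, 17.0 and 23.5 CPM in PyMT *Pcbp1*–/– tumors (lowest, median and highest) and at 21.0, 16.4, 16.8, 15.4 and 14.6 CPM in PyMT *Pcbp1*+/+ tumors. The groups covered nearly the same range, with a log2 fold change of 0.09 (SE 0.14, 95% interval -0.22 to 0.39, edgeR adjusted p = 0.774). Without replicate 3 of PyMT *Pcbp1*–/– it was -0.0015.

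*Smad4* (ENSMUSG00000024515.13, chr18:73639009-73703780, minus strand), the partner shared with the bone morphogenetic protein (BMP) branch, stood at 49.5, 57.4 and 68.8 CPM in PyMT *Pcbp1*–/– tumors (lowest, median and highest) and at 53.4, 58.8, 47.9, 49.6 and 56.7 CPM in PyMT *Pcbp1*+/+ tumors. It varied the least of the 10, with 1.44 times between the highest and the lowest tumor. Its log2 fold change was 0.13 (SE 0.11, 95% interval -0.10 to 0.37, edgeR adjusted p = 0.536), with 0.077 when replicate 5 of PyMT *Pcbp1*–/– was left out and 0.23 with limma-voom.

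*Smad7* (ENSMUSG00000025880.11, chr18:75367529-75395935, plus strand) encodes the inhibitory SMAD, which is itself induced by TGF-beta and marks TGFBR1 for degradation. Its level was 35.0, 52.8 and 69.3 CPM in PyMT *Pcbp1*–/– tumors (lowest, median and highest) and 41.9, 46.5, 40.7, 39.6 and 47.1 CPM in PyMT *Pcbp1*+/+ tumors. The 5 PyMT *Pcbp1*+/+ tumors lay close together, and PyMT *Pcbp1*–/– tumors were found both above and below them, with SDs of 3.39 and 12.7 CPM. For *Smad7* the log2 fold change was 0.24 (SE 0.17, 95% interval -0.12 to 0.60, edgeR adjusted p = 0.461), and 0.13 without replicate 5 of PyMT *Pcbp1*–/–, the tumor at 69.3 CPM.

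**Figure D2:**
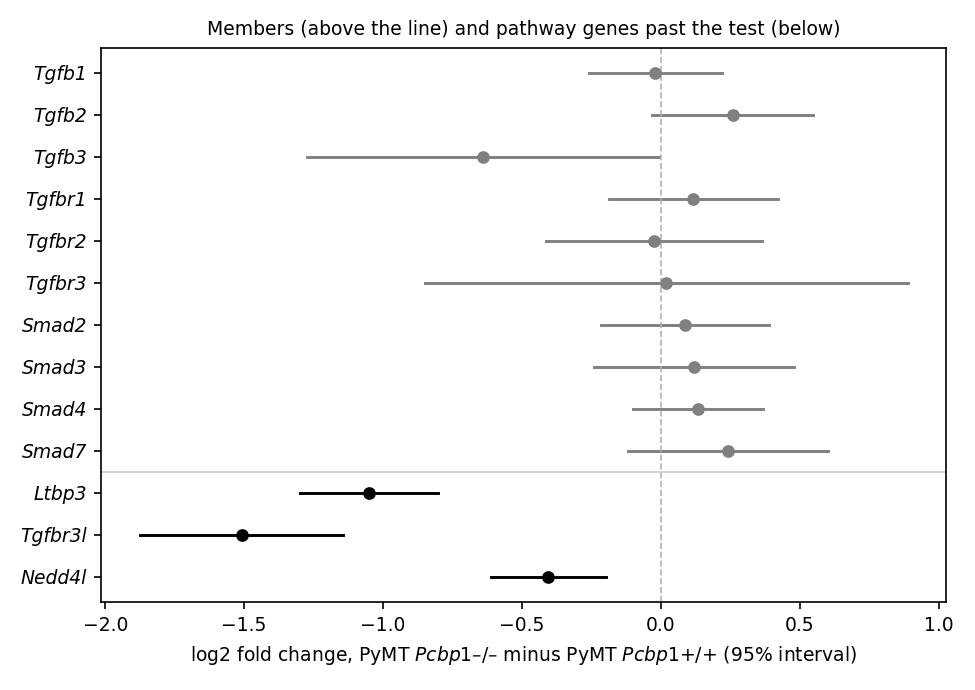
Log2 fold change of PyMT *Pcbp1*–/– (n = 6) over PyMT *Pcbp1*+/+ (n = 5) tumors from edgeR for the 10 members (grey, above the line) and for the other pathway genes with an adjusted p under 0.05 (black, below the line), with 95% intervals not adjusted for the number of genes. The intervals of 9 members include 0, that of *Tgfb3* ends at -0.01, and those of *Ltbp3*, *Tgfbr3l* and *Nedd4l* lie below 0.

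Levels were compared between genes per kilobase of exon, with exon lengths from a later annotation matched by gene identifier. By the median over the 11 tumors, *Tgfb3* came first with 56.5 CPM per kilobase, followed by *Tgfbr2* with 34.0, and *Tgfb3* exceeded *Tgfbr2* in each of the 11 tumors although their ranges overlapped. Next came *Tgfbr3* (14.4), *Smad3* (14.3) and *Tgfbr1* (13.4 CPM per kilobase), whose ranges overlapped, and *Tgfbr2* lay above *Tgfbr3* without overlap. *Smad7* (9.79), *Tgfb2* (9.60), *Smad4* (7.81) and *Tgfb1* (6.72 CPM per kilobase) followed, each overlapping its neighbours. *Smad2* was last with 1.46 CPM per kilobase, and its range of 1.29 to 2.09 did not overlap that of *Tgfb1*. The middle of this order depended on the length used. With the longest transcript 3 members took another rank, and with the coding length 5 did, while *Tgfb3*, *Tgfbr2* and *Smad2* held ranks 1, 2 and 10 with all 3 lengths.

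The genes whose levels over the 11 tumors were most like those of each member were sought among 186 other tested genes of the pathway and marker lists. All values are Spearman correlations of log2 CPM over 11 tumors of 2 genotypes, the highest of 186 for each member, given as descriptions. *Smad4* and *Smad7* were each other's closest match (0.83), and *Tgfb3* was the closest to *Tgfbr2* (0.72). *Tgfb1* was closest to *Cd68* (0.83), 1 of the 8 macrophage markers, and *Tgfb2* to *Fam3c* (0.82). The sum of the 8 macrophage markers followed *Tgfb1* in some tumors and not in others. It was 370 CPM in PyMT *Pcbp1*–/– replicate 1, with the most *Tgfb1*, and 130 CPM in PyMT *Pcbp1*+/+ replicate 5, with the least. In PyMT *Pcbp1*+/+ replicate 2, with 38.3 CPM of *Tgfb1*, it was 176 CPM. The part of macrophages in the *Tgfb1* values was not tested. *Tgfbr3* was closest to the myoepithelial marker *Cnn1* (0.70). *Tgfbr1* was closest to *Ltbp2*, which encodes a matrix protein of elastic fibers, and equally to the macrophage marker *C1qa* (0.75 each), and *Smad2* to *Tgif2* (0.75), a SMAD corepressor. The closest genes to *Smad3* and *Tgfb3*, *Gdf6* (0.85) and *Amhr2* (0.76), were expressed at a few CPM or less.

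Outside the 10 members, the rest of the pathway was read from lists of 127 genes in the table, 116 of them tested. Of these, 3 were lower in PyMT *Pcbp1*–/– tumors at an edgeR adjusted p under 0.05 and 0 were higher. Over all the genes tested the share called was 2.27%, with 1.66% lower. At an unadjusted p under 0.05 there were 7 lower and 4 higher, 11 of 116, against 18.7% of all the genes tested. Limma-voom alone called 1 gene higher, *Id2* (adjusted p = 0.0361), where DESeq2 and limma on log2 CPM called 0. The median log2 fold change of the 116 was -0.01, with 54 above 0 and 62 below. The 3 genes were *Ltbp3*, *Tgfbr3l* and *Nedd4l*, and in each of them all 6 PyMT *Pcbp1*–/– tumors lay below all 5 PyMT *Pcbp1*+/+ tumors. The 3 were picked by the test on these same values, so the separation is a description and adds no support. The share of all the genes tested whose groups lay apart is not given here.

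*Ltbp3* (ENSMUSG00000024940.10, chr19:5740904-5758532, plus strand) encodes a latent TGF-beta binding protein, which attaches the latent ligand complex to the matrix. It stood at 80.6, 100.3 and 119.9 CPM in PyMT *Pcbp1*–/– tumors (lowest, median and highest) and at 251, 186, 164, 194 and 223 CPM in PyMT *Pcbp1*+/+ tumors. The lowest PyMT *Pcbp1*+/+ tumor was thus well above the highest PyMT *Pcbp1*–/– tumor. The level was 2.07-fold lower in PyMT *Pcbp1*–/– tumors (95% interval 1.74 to 2.46, log2 fold change -1.05, SE 0.11, edgeR adjusted p = 0.00194). It passed in all 21 alternative settings, with adjusted p-values between 3.56e-13 and 0.0256 and log2 fold changes between -1.11 and -0.99.

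Of the 13 genes of latency and activation, all tested, edgeR called 1 lower, *Ltbp3*, and 0 higher. DESeq2 and limma-voom each called 2 lower, *Ltbp3* and *Lrrc32*, where over all genes they called 730 and 1190 lower, against 319 with edgeR. The median log2 fold change was -0.23, with 9 below 0. The related *Ltbp1* had means of 82.5 and 85.0 CPM (PyMT *Pcbp1*–/– and PyMT *Pcbp1*+/+, log2 fold change -0.03, edgeR adjusted p = 0.950), and *Ltbp4* had 6.85 and 8.26 CPM (-0.28, adjusted p = 0.602). *Ltbp2*, which does not bind the latent ligand, had means of 212 and 171 CPM (0.31, adjusted p = 0.732) but medians of 148 and 168 CPM. Its direction turned without PyMT *Pcbp1*–/– replicate 1, which held 497 CPM (-0.13), and with limma-voom (-0.17). *Thbs1*, the most abundant of the list, encodes a matrix protein that can activate latent TGF-beta. It stood at 314 ± 123 and 436 ± 222 CPM (SD, log2 fold change -0.48, edgeR adjusted p = 0.464). Its log2 fold change was -0.19 without PyMT *Pcbp1*+/+ replicate 2 and -0.10 with limma-voom.

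*Lrrc32*, chosen after its values were seen, came nearest to the threshold in this list. It encodes GARP, which holds latent TGF-beta on the surface of regulatory T cells and some other cells. Its level was 23.3, 33.4 and 47.2 CPM in PyMT *Pcbp1*–/– tumors (lowest, median and highest) and 72.6, 65.1, 54.8, 67.0 and 29.8 CPM in PyMT *Pcbp1*+/+ tumors. All the PyMT *Pcbp1*+/+ tumors except replicate 5 stood above every PyMT *Pcbp1*–/– tumor. The log2 fold change of -0.72 (SE 0.21) had an edgeR adjusted p of 0.0914, and it was -0.87 with an adjusted p of 0.0177 without replicate 5 of PyMT *Pcbp1*+/+. DESeq2 gave an adjusted p of 0.0255 and limma-voom one of 0.0227. The rest of the 21 alternative settings, limma on log2 CPM among them, did not call *Lrrc32*. The T cell markers summed to 5.46, 7.64 and 10.1 CPM in PyMT *Pcbp1*–/– tumors (lowest, median and highest). In PyMT *Pcbp1*+/+ tumors the sums were 13.3, 9.09, 12.3, 12.9 and 6.78 CPM, in replicate order. Of 8 T cell genes 5 were tested and 0 called by edgeR, while DESeq2 and limma-voom called *Il2ra* lower. In edgeR 4 of the 5 had a log2 fold change below 0 and 1 above. At an unadjusted p under 0.05, 2 of the 5 were lower and 0 higher, against 18.7% of all the genes tested. The lowest edgeR adjusted p of the 5 was 0.0565. *Foxp3* was the most abundant of the 8, and *Cd3d* averaged 0.130 and 0.0354 CPM, below the 0.213 to 0.285 CPM to which 3 counts correspond. The part of T cells in the *Lrrc32* values was not tested.

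*Tgfbr3l* (ENSMUSG00000089736.2, chr8:4248214-4251423, plus strand) encodes a betaglycan-like co-receptor known for binding inhibin B in the pituitary. It was a rare message, at 2.13, 2.32 and 3.87 CPM in PyMT *Pcbp1*–/– tumors (lowest, median and highest) and at 7.77, 7.21, 7.10, 8.38 and 6.97 CPM in PyMT *Pcbp1*+/+ tumors. The groups lay apart, with a wider relative spread in PyMT *Pcbp1*–/– tumors (SD 25.9% of the mean, against 7.86%). The level was 2.85-fold lower in PyMT *Pcbp1*–/– tumors (95% interval 2.21 to 3.67, log2 fold change -1.51, SE 0.17, edgeR adjusted p = 0.00194). Each tumor gave between 24 and 92 estimated counts of this gene, and the call held in all 21 alternative settings with adjusted p-values up to 0.0199. *Inhbb*, the inhibin and activin subunit that was the most abundant of the other ligands, stood at 364 ± 101 and 314 ± 199 CPM (SD, log2 fold change 0.25, edgeR adjusted p = 0.708). Leaving out single tumors moved its log2 fold change between 0.088 (without PyMT *Pcbp1*+/+ replicate 5) and 0.65 (without replicate 1 of that group). *Inha* had means of 1.05 and 1.82 CPM (-0.78, adjusted p = 0.458) but medians of 0.918 and 1.09 CPM, with 4.74 CPM in PyMT *Pcbp1*+/+ replicate 2.

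*Nedd4l* (ENSMUSG00000024589.16, chr18:64887705-65217831, plus strand) encodes a ubiquitin ligase that targets activated SMAD2 and SMAD3. It stood at 65.7, 78.2 and 90.9 CPM in PyMT *Pcbp1*–/– tumors (lowest, median and highest) and at 126, 94.1, 95.2, 107 and 102 CPM in PyMT *Pcbp1*+/+ tumors. The groups met closely, at 90.9 and 94.1 CPM. The level was 1.32-fold lower in PyMT *Pcbp1*–/– tumors (95% interval 1.15 to 1.53, log2 fold change -0.40, SE 0.10), just past the threshold at an edgeR adjusted p of 0.0493. Of the 21 alternative settings 7 kept the call, with adjusted p-values from 0.00404 to 0.147 over all of them and log2 fold changes from -0.45 to -0.35. Leaving out PyMT *Pcbp1*–/– replicate 1, 2, 3, 4 or 6 gave adjusted p-values of 0.0716, 0.0532, 0.114, 0.0979 and 0.0818. Leaving out PyMT *Pcbp1*+/+ replicate 1, 3, 4 or 5 gave 0.108, 0.102, 0.0983 and 0.0794.

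**Figure D3:**
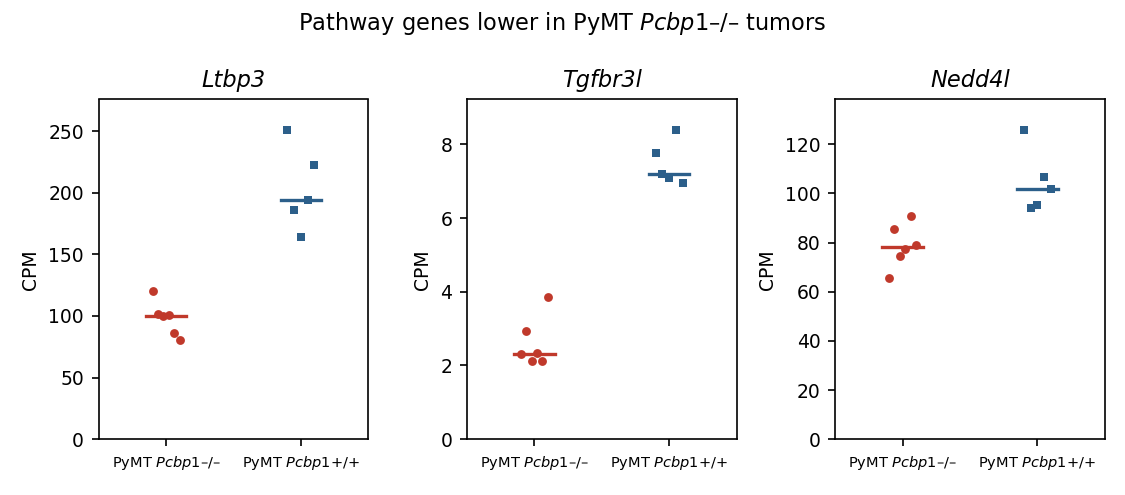
Levels in CPM, on linear axes from 0, of the 3 pathway genes with an adjusted p under 0.05 in each PyMT *Pcbp1*–/– tumor (red circles, n = 6) and each PyMT *Pcbp1*+/+ tumor (blue squares, n = 5), with the group median as a line. The groups do not overlap for any of the 3, and for *Nedd4l* the nearest tumors stand at 90.9 and 94.1 CPM.

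Among the other receptors and co-receptors, 12 genes were tested, 1 was lower and 0 higher, with a median log2 fold change of -0.10. *Bmpr2*, the type II receptor for BMP ligands and the most abundant, had means of 299 and 295 CPM (log2 fold change 0.03, edgeR adjusted p = 0.902). The other SMADs gave 0 calls of 3 tested, and 0 had an unadjusted p under 0.05. *Smad5*, which carries BMP signals, stood at 129.6 ± 10.1 and 129.6 ± 16.5 CPM (SD, adjusted p = 0.980), and the inhibitory *Smad6* at 12.0 ± 1.67 and 13.7 ± 1.55 CPM (SD, log2 fold change -0.19, adjusted p = 0.392). Of the other ligands 16 were tested and 0 called, with 1 (*Bmp6*, log2 fold change 1.06) at an unadjusted p under 0.05. The largest value there, 1.30 for *Gdf10* (SE 0.91, adjusted p = 0.468), came from a message that ranged from 0.675 to 19.2 CPM within the PyMT *Pcbp1*–/– tumors. Without replicate 5 of that group, the tumor at 19.2 CPM, it was 0.30, and without replicate 3 of PyMT *Pcbp1*+/+ it was 1.96.

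Secreted antagonists gave 0 edgeR calls of 8 tested and 0 at an unadjusted p under 0.05. For these, as for the other SMADs, the other ligands, the positive regulators and SMAD-independent signaling, limma also called 0, as did DESeq2, which tested 14 of the 16 other ligands. *Bgn*, a proteoglycan that binds TGF-beta, had means of 195 and 204 CPM (log2 fold change -0.07, edgeR adjusted p = 0.865), and *Fmod*, another, had 36.5 ± 24.9 and 69.0 ± 46.6 CPM (SD, -0.89, adjusted p = 0.397). With limma-voom the log2 fold change of *Fmod* was -1.41 (adjusted p = 0.0553). Apart from *Nedd4l*, the 13 negative regulators inside the cell gave no call. They include *Pmepa1*, which captures SMAD2 and SMAD3 and is induced by TGF-beta, at 325 ± 121 and 375 ± 122 CPM (SD, -0.19, adjusted p = 0.714). *Bambi*, a decoy receptor, stood at 7.66 ± 2.68 and 10.3 ± 8.64 CPM (SD, -0.42, adjusted p = 0.632). Replicate 2 of PyMT *Pcbp1*+/+ held 25.5 CPM of it, and without that tumor the log2 fold change was 0.25. The 11 positive regulators gave 0 calls and 1 gene (*Usp15*) at an unadjusted p under 0.05. They include the coactivator *Crebbp* with means of 200.1 and 204 CPM (-0.03, adjusted p = 0.912) and *Usp11*, a deubiquitinase of TGFBR1, with 2.93 and 3.63 CPM (-0.29, adjusted p = 0.569, and -0.082 without PyMT *Pcbp1*+/+ replicate 2). SMAD-independent signaling gave 0 calls of 13 and 0 at an unadjusted p under 0.05. *Rhoa* had means of 186 and 175 CPM (0.08, adjusted p = 0.501) and the adaptor *Traf4* had 97.7 and 78.6 CPM (0.30, adjusted p = 0.461).

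Genes known to be induced or repressed by TGF-beta gave 0 calls of 28 tested in edgeR, with a median log2 fold change of 0.04, 15 values above 0 and 13 below. The list mixes induced and repressed genes, so its median and signs do not measure the activity of the pathway. At an unadjusted p under 0.05, 3 were higher and 1 lower, 4 of 28, against 18.7% of all the genes tested. *Id2* of this list was called higher by limma-voom alone (log2 fold change 0.38, adjusted p = 0.0361). *Snai2*, a transcription factor of epithelial-mesenchymal transition, had the largest log2 fold change of the list in edgeR. Its level was 4.80, 11.7 and 17.2 CPM in PyMT *Pcbp1*–/– tumors (lowest, median and highest) and 11.2, 2.18, 6.92, 4.56 and 1.88 CPM in PyMT *Pcbp1*+/+ tumors. The groups overlapped, with a log2 fold change of 1.09 (SE 0.44, 95% interval 0.14 to 2.04, edgeR adjusted p = 0.207).

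PCBP1 is known for holding back the translation of the TGF-beta-responsive messages *Dab2* and *Fam3c* by binding them. Neither message was called in edgeR, DESeq2 or limma. *Fam3c* stood at 154, 214 and 385 CPM in PyMT *Pcbp1*–/– tumors (lowest, median and highest) and at 205, 101, 149, 176 and 219.8 CPM in PyMT *Pcbp1*+/+ tumors. The groups overlapped, with a log2 fold change of 0.49 (SE 0.25, 95% interval -0.05 to 1.03, edgeR adjusted p = 0.312). *Dab2* had means of 45.9 and 41.2 CPM (0.18, adjusted p = 0.787). Message levels do not measure translation, which was not analysed here.

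Among the cell type markers, the luminal list had the highest sum in each of the 11 tumors. The 10 luminal markers summed to between 1339.8 and 2572 CPM, with *Cdh1* the most abundant. The 10 fibroblast markers summed to between 428 and 1059.9 CPM, led by *Col1a1*, with medians of 708 and 564 CPM (PyMT *Pcbp1*–/– first). The 8 macrophage markers, led by *C1qb*, had medians of 258 and 234 CPM, and the 9 endothelial markers, led by *Cdh5*, medians of 69.0 and 90.8 CPM. Adipocyte markers (6, led by *Fabp4*) had medians of 8.07 and 10.6 CPM and neutrophil markers (4, led by *Csf3r*) 2.82 and 2.74 CPM. Of the B cell list *Cd79b* alone was used, at 0.0890 to 0.773 CPM. Log2 fold changes were above 0 for 8 of 8 macrophage and 9 of 10 fibroblast markers and below 0 for 9 of 9 endothelial and 6 of 6 adipocyte markers. The other lists went both ways, with 4 luminal markers above 0 and 6 below, and 3 basal/myoepithelial markers above and 5 below. Of the T cell markers tested, 1 was above 0 and 4 were below. The lists were not compared by a test. Replicate 3 of PyMT *Pcbp1*+/+ held an adipocyte sum of 59.8 CPM, against at most 12.3 CPM in the other tumors of its group. In edgeR 0 of 64 marker genes tested were called.

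The 7 markers of dividing cells, led by *Mki67*, all had log2 fold changes above 0, with a median of 0.42. Of the 7, 4 had an unadjusted p under 0.05 in edgeR, against 18.7% of all the genes tested. The 7 markers summed to 409, 611, 648, 593, 598 and 568 CPM in the 6 PyMT *Pcbp1*–/– tumors, in replicate order. The 5 PyMT *Pcbp1*+/+ tumors, in replicate order, had 307, 472, 388, 480.1 and 419 CPM. All the PyMT *Pcbp1*–/– tumors except replicate 1 lay above every PyMT *Pcbp1*+/+ tumor. EdgeR and limma on log2 CPM called 0 of the 7, DESeq2 called 3 and limma-voom 5, all higher. Over all genes DESeq2 called 486 higher and limma-voom 968, against 117 with edgeR. These values stand beside the lower *Ltbp3*, *Tgfbr3l* and *Nedd4l*, and whether the share of dividing cells had a part in those was not tested.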

How the data were processed

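RNA was extracted with Trizol, made into stranded poly(A) libraries and sequenced paired-end. Per the submitters' processing notes and the study's methods, reads were checked with FastQC, aligned to GRCm38 with Bowtie2 and handled in Partek, with versions and the counting method not given in the sources used here. The authors deposited estimated counts per gene, which need not be whole. The authors also deposited CPM, each estimated count scaled to a common column total, and levels are those values.

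After rounding, the counts went into edgeR 4.0.16 in R 4.3.3 (TMM factors, default filter on low counts, quasi-likelihood test, genotype as the only term, Benjamini-Hochberg adjustment over all 19232 genes tested). Intervals of 95% came from the fitted SE. The code was tested on simulated data. DESeq2 1.42.0, limma 3.58.1 (voom with sample quality weights, and on log2 CPM), other scalings and filters, the replicate number as a block and each tumor left out in turn were tried as alternatives. No separate counts of the shared reads of overlapping genes were made.

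The members and lists were chosen with earlier results of these data known. Named genes were *Pcbp1*, the members, in each pathway list every gene called, the most abundant gene and the gene with the largest change among those averaging at least 1 CPM, and for each member the list gene most correlated with it. Genes named beyond that rule are examples chosen after their values were seen. Lists were compiled from general knowledge of the pathway: latency and activation, other SMADs, other receptors and co-receptors, other ligands, secreted antagonists, negative and positive regulators inside the cell, SMAD-independent signaling, transcriptional targets, messages bound by PCBP1, and cell type markers. *Tdgf1*, *Lefty2*, *Nog*, *Foxh1*, *Cd79a* and *Ms4a1* were not analysed here. Correlations used log2(CPM + 0.1). Exon lengths came from a GENCODE annotation of a later build, by identifier.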

Additional observations from a re-analysis of the deposited data

Results flagged for a closer look

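In 92 groups of values, 46 quantities in each genotype, the highest or lowest tumor stood far from the rest in 7 cases. For independent, normally distributed values the rule would give about 4.6. These quantities are related to one another and were partly chosen from the same data, so 4.6 is not a chance count for them. *Tgfb3* was low in PyMT *Pcbp1*–/– replicate 5, at 118 CPM beside 269 CPM in the next tumor. *Bambi* was high in PyMT *Pcbp1*+/+ replicate 2, at 25.5 CPM beside 8.68 CPM. *Ltbp2* was high in PyMT *Pcbp1*–/– replicate 1, at 497 CPM beside 243 CPM. *Tgif2* was high in replicate 1 of both groups, at 27.7 CPM in PyMT *Pcbp1*–/– and 22.2 CPM in PyMT *Pcbp1*+/+, beside 14.11 and 9.69 CPM. The summed adipocyte markers were high in PyMT *Pcbp1*+/+ replicate 3, at 59.8 CPM beside 12.3 CPM. The summed markers of dividing cells were low in PyMT *Pcbp1*–/– replicate 1, at 409 CPM beside 568 CPM. The causes were not tested.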

How the results depend on the processing

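None of the 10 members passed an adjusted p under 0.05 in any of 21 alternatives, and the lowest adjusted p was 0.120 (*Tgfb2*, limma-voom). *Pcbp1*, *Ltbp3* and *Tgfbr3l* passed in all of them. The count of all genes lower was 319 and of genes higher 117. It was 730 and 486 with DESeq2 and 1190 and 968 with limma-voom, which was used with sample quality weights throughout, so the method and the weights moved together. Leaving out single tumors gave 144 to 389 lower and 41 to 187 higher. Both counts were lowered most by leaving out PyMT *Pcbp1*–/– replicate 3 (144 and 42), 4 (148 and 46), 5 (163 and 48) or 6 (212 and 69), or PyMT *Pcbp1*+/+ replicate 1 (171 and 54), 3 (184 and 41) or 4 (148 and 42). Without PyMT *Pcbp1*+/+ replicate 2 the count higher was 187. The causes were not tested.

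Same-numbered tumors correlated at 0.16, 0.064, -0.11, -0.17 and 0.32 in their deviations from the group means, which shows no consistent pairing by number. With the number as a replicate block in 10 tumors, 118 genes were lower and 42 higher, 0 members were called, and 2 pathway genes were lower.

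Other counts of pathway genes lower lay between 2 and 4, and the count of those higher was 1 with limma-voom and 0 in the other alternatives. The order of the members by level changed for 3 members with the longest transcript and 5 with the coding length.

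Several log2 fold changes changed sign, among them those of *Bambi* (-0.42 from edgeR) and *Ltbp2* (0.31), which were not near 0. With limma-voom *Tgfbr1* was -0.024, *Bambi* 0.12, *Crebbp* 0.065, *Ltbp2* -0.17 and *Gdf6* -0.46. With the replicate block *Tgfb1* was 0.00089, *Smad5* -9.0e-05 and *Crebbp* 0.013. *Smad5* was -0.00030 with library size only and -0.00085 with upper-quartile factors. *Cnn1* was 0.12 and 0.15 with limma on log2(CPM + 1) and log2(CPM + 0.1). When single tumors were left out, *Tgfb1* ranged from -0.077 to 0.031, *Tgfbr1* from -0.012 to 0.18, *Tgfbr2* from -0.14 to 0.080, *Tgfbr3* from -0.24 to 0.18, *Smad2* from -0.0015 to 0.15 and *Smad3* from -0.032 to 0.19. Of the other genes, *Smad5* ranged from -0.030 to 0.044, *Bmpr2* from -0.026 to 0.097, *Bgn* from -0.14 to 0.034, *Bambi* from -0.59 to 0.25, *Crebbp* from -0.070 to 0.052, *Ltbp2* from -0.13 to 0.49, *Cnn1* from -0.47 to 0.53 and *Gdf6* from -0.10 to 0.42. With the sign kept, *Tgfb3* ranged from -0.76 to -0.31, *Smad4* from 0.077 to 0.19, *Smad7* from 0.13 to 0.32, *Thbs1* from -0.71 to -0.19, *Inhbb* from 0.088 to 0.65, *Fmod* from -1.34 to -0.63, *Pmepa1* from -0.33 to -0.078, *Usp11* from -0.40 to -0.082, *Traf4* from 0.14 to 0.46, *Snai2* from 0.881 to 1.496 and *Fam3c* from 0.32 to 0.63. *Gdf10* ranged from 0.30 without PyMT *Pcbp1*–/– replicate 5 to 1.96 without PyMT *Pcbp1*+/+ replicate 3. The causes were not tested. The groups held 6 and 5 tumors, and for genes that did not pass the test the intervals give the differences compatible with these values.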
